A study of Mus musculus with 6 samples.

Results

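Fragments of serine and threonine tRNAs were examined in small RNA libraries made from the brain of C57BL/6 mice, a common inbred strain. There were 3 libraries of mice aged 3 months and 3 of mice aged 22 months. The sample labels record no other treatment or genotype. Column headers name the 3 month libraries WT and the 22 month ones Age, and WT was read here only as the age. The labels do not give the sex, the part of the brain or whether each library is 1 animal. Every p-value therefore reflects only how far these libraries differ, which may be technical. The measurement is the tag count of each tRNA-derived small RNA (tDR), a piece cut from a tRNA, with an ID of its own. Members were the IDs whose parent tRNA names are all of serine or all of threonine and include at least 1 mature tRNA. The rule found 31 of 591 IDs, 16 of serine and 15 of threonine. A further 2 IDs listed jointly under Ser-GGA and phenylalanine tRNAs did not meet it.

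A tRNA carries its amino acid on a CCA end and reads the codon with its anticodon. Serine tRNAs are known for a long variable arm between the anticodon arm and the T arm, which the serine synthetase recognises, whereas threonine tRNAs have a short variable loop. Ser-GCT reads the AGC and AGT codons of serine, and Ser-AGA, Ser-CGA and Ser-TGA read its TCN codons; Thr-AGT, Thr-CGT and Thr-TGT share the ACN codons of threonine. Fragments of mature tRNAs are made by cuts in the anticodon loop, which give long pieces that start or end there, or in the D or T loop, which give shorter pieces. Pieces that keep the CCA end come from a processed tRNA, because the CCA is added after the precursor is trimmed.

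The table gives the sequence of each parent tRNA and not of the fragment, in DNA letters. Sequences of the parents are shown because the list of parents narrows where a fragment can lie. All 17 mature serine parents and all 8 mature threonine parents end in CCA. The Ser-GCT copies, to which 11 of the 16 serine members belong, are 85 nt long with the anticodon at positions 34 to 36, counted from the 5′ end. Capitals mark the 6 positions at which they differ.
Ser-GCT-4-1: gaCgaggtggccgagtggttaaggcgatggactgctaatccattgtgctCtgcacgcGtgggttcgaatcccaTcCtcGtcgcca
Ser-GCT-1-1: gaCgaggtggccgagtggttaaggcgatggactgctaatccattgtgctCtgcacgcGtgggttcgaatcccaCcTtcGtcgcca
Ser-GCT-2-1: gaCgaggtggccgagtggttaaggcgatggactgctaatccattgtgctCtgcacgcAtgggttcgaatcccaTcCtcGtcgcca
Ser-GCT-3-1: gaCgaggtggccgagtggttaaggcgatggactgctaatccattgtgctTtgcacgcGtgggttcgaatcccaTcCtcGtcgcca
Ser-GCT-5-1: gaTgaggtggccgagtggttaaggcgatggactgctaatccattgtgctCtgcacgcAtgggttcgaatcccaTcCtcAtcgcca
With Ser-GCT-4-1 as the reference, the differences are T74C and C76T in Ser-GCT-1-1, G58A in Ser-GCT-2-1, C50T in Ser-GCT-3-1, and C3T, G58A and G79A in Ser-GCT-5-1. Ser-GCT-4-2 and Ser-GCT-4-3 are identical to Ser-GCT-4-1.

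A stretch of at least 15 nt was taken as a possible site of a fragment when every listed parent holds it and no other tRNA or precursor of the table does. Such a stretch exists for 13 of the 16 serine members and all 15 threonine members, and for 423 of the 503 IDs of the table with a mature parent. The other 80 IDs have none, so the lists of parents are not in every case all exact matches, and the placement is a reading of those lists. In the sequences that follow, capitals mark the bases that every possible site of 1 fragment contains.
Ser-AGA-1-1: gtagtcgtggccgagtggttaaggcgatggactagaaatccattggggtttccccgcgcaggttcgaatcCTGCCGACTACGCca
Thr-AGT-1-1: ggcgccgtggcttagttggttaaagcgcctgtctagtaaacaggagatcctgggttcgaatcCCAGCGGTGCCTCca
Thr-TGT-2-1: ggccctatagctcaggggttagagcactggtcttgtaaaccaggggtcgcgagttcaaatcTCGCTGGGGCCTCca
Thr-CGT-2-1: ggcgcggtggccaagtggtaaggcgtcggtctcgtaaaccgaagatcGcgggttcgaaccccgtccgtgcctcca
The fragments are AS-tDR-000088 for Ser-AGA-1-1, AS-tDR-006004 for Thr-AGT-1-1, AS-tDR-000074 for Thr-TGT-2-1 and AS-tDR-005104 for Thr-CGT-2-1. The first 3 must take in at least the first base of the CCA end, since precursors with the same body but no CCA are in the table and are not among their parents. AS-tDR-005104 must cross position 48 and end before the CCA.

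Copies of these tRNAs are spread over the genome, and the table does not say which copy a fragment came from. RefSeq, on assembly GRCm38.p6, lists 8 Ser-GCT genes (4 on chromosome 13 and 1 each on chromosomes 1, 2, 11 and 19), 7 Ser-AGA, 3 Ser-TGA and 3 Ser-CGA genes. It lists 9 Thr-AGT genes (4 on chromosome 13, 3 on 11 and 1 each on 7 and 14), 4 Thr-CGT and 4 Thr-TGT genes. The serine genes of these anticodons are 82 nt long before the CCA is added. The names in the table were not tied to single RefSeq genes.

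Listed tags over all IDs summed to between 44156 and 57425 in the libraries at 3 months and between 71121 and 96130 at 22 months. No library lists a value below a minimum of 177 to 204 CPM (counts scaled to a common total of listed tags), which is 8 to 17 tags, so a 0 stands for a level under that minimum. Same-age replicates were further apart than counting error alone would give, with a chi-square per degree of freedom of 6.6 to 10.2 at 3 months and 16.9 to 59.7 at 22 months. The 2 highest values, 54.8 and 59.7, were of the pairs with 22 month replicate 3, which listed 373 IDs against 413 to 463 in the other 5 libraries. Members were low: their highest count in any library was 70 tags for serine and 47 for threonine, and only 1 serine and 3 threonine members were listed in all 6 libraries.

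**Figure D1:**
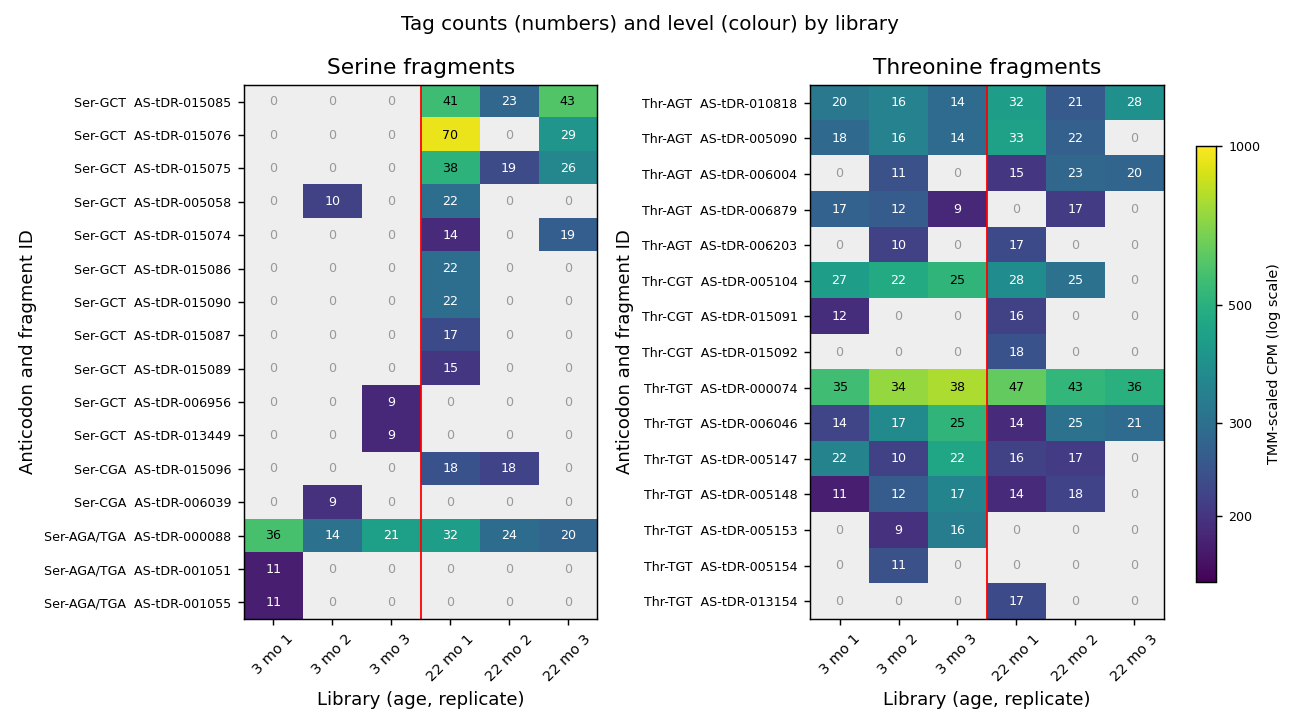
Tag counts of the 16 serine (left) and 15 threonine members (right) in the 6 libraries; each row is 1 ID, the number is the tag count, colour is the TMM-scaled CPM on a log scale, grey is a value listed at 0, and the red line parts 3 months from 22 months. The top Ser-GCT rows, AS-tDR-015085, AS-tDR-015076 and AS-tDR-015075, have tags at 22 months only. Over all Ser-GCT rows, replicates 1, 2 and 3 at 22 months hold 261, 42 and 117 tags, though AS-tDR-015085 is highest in replicate 3. Most threonine rows have tags at both ages.

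Most serine members were listed at 1 age only, many of them in just 1 library. Of the 16 members, 9 were listed at 22 months only, 5 at 3 months only and 2 at both ages. Over all 591 IDs, 10.3% were listed at 22 months only and 14.7% at 3 months only. These shares are no like comparison, since they cover IDs with up to 15098 tags in a library, against at most 70 for serine members. Of the 9 listed at 22 months only, 8 are of Ser-GCT and 1 of Ser-CGA. Across the 16 members, 9 were listed in just 1 library, and so at 1 age by construction, against 81 of all 591 IDs. Those in just 1 library include all 5 listed at 3 months only. Replicate 1 at 22 months listed 11 serine members, against 4 and 5 in replicates 2 and 3 and 3 in each library at 3 months. Without 22 month replicate 1, 5 members were listed at 22 months only and 6 at 3 months only, and 4 were in no library. The filter on low counts left 3 of the 16 for testing: 1 passed as higher, 0 as lower, and 2 missed the threshold of 0.05.

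AS-tDR-015085, listed under Ser-GCT-2-1 and Ser-GCT-5-1, had 41, 23 and 43 tags in replicates 1, 2 and 3 at 22 months and 0 in all 3 libraries at 3 months. Its possible sites lie between positions 4 and 78 and all cross position 58, where these parents differ from the other Ser-GCT copies (G58A). Its level at 22 months was 477 ± 171 TMM-scaled CPM (SD, n = 3). That is at least 2.67-fold higher than at 3 months, taking the mean of the smallest listed values there, 179 CPM, as the limit. It was the 1 member that passed edgeR's quasi-likelihood test (Benjamini-Hochberg adjusted p = 0.0489 over 439 IDs, between 2.59e-05 and 0.295 over the alternatives). Over all IDs tested, 4.78% rose and 1.82% fell at this threshold. As an ID at 0 in every library at 3 months, it entered the test only through its counts at 22 months, and without the filter on low counts its adjusted p was 0.0711. The call was lost when any 1 of the 6 libraries was left out, with an adjusted p between 0.0785 and 0.128.

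AS-tDR-015074, AS-tDR-015075 and AS-tDR-015076 share a list of parents, namely 6 mature Ser-GCT copies and the precursor of Ser-GCT-4-3, without Ser-GCT-3-1. Their possible sites lie between positions 4 and 57 and all take in positions 43 to 50, the last base of the anticodon arm and the first part of the variable arm. AS-tDR-015075 had 38, 19 and 26 tags in replicates 1, 2 and 3 at 22 months and was listed at 0 at 3 months, so it was at least 2.06-fold higher. Its 3 libraries at 22 months lay above those at 3 months, as did those of 14.4% of all IDs. It did not pass (edgeR, adjusted p = 0.0527, between 8.07e-05 and 0.42 over the alternatives). The lowest value is that of the DESeq2 test, which it passed, as it did with DESeq2 size factors (edgeR, adjusted p = 0.0474). Since its only listed tags were from 22 months, this fragment could clear the filter on low counts solely through its level there. Without that filter its adjusted p was 0.0804 (edgeR), and with 1 library left out it was 0.0885 to 0.128. AS-tDR-015076 reached the highest count of any serine member, 70 tags in replicate 1, with 0 and 29 in replicates 2 and 3 and 0 at 3 months. AS-tDR-015074 had 14, 0 and 19 tags at 22 months. Both were below the filter on low counts and were not tested.

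The remaining Ser-GCT members were listed in 1 or 2 libraries. AS-tDR-015086, AS-tDR-015087, AS-tDR-015089 and AS-tDR-015090 had 22, 17, 15 and 22 tags in 22 month replicate 1 and 0 elsewhere. No possible site was found for the last 3 of these. AS-tDR-005058, of Ser-GCT-3-1 alone and crossing its position 50, had 10 tags in 3 month replicate 2 and 22 in 22 month replicate 1. The other two, AS-tDR-006956 and AS-tDR-013449, were listed only in 3 month replicate 3, with 9 tags each, the smallest count listed in that library. Their possible sites lie between positions 59 and 85, in the T arm and acceptor stem. AS-tDR-006956 must reach the CCA end and AS-tDR-013449 must end before it. The 5 Ser-GCT members listed at 22 months only for which a site was found end at or before position 78.

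**Figure D2:**
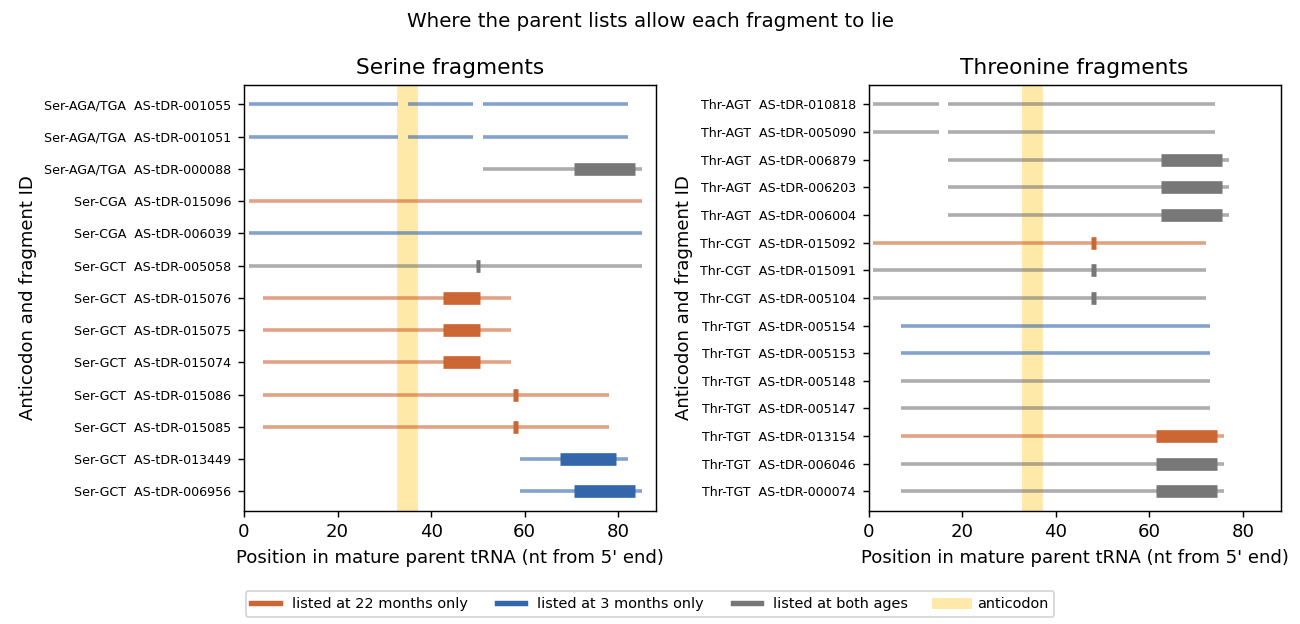
Possible sites of the 13 serine (left) and 15 threonine members (right) for which 1 was found, along the mature parent in nt from its 5′ end; thin lines are the longest possible stretches, thick bars the bases every possible site contains, colour the ages at which the ID was listed, and the yellow band the anticodon. The Ser-GCT sites of 22 months only take in positions 43 to 50, or cross position 58 and may reach position 78. Those of 3 months only lie from position 59 on, so the stretches can overlap. They belong to 2 IDs with 9 tags each, in 3 month replicate 3 alone.

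Summed over members, Ser-GCT had 0, 10 and 18 tags in replicates 1, 2 and 3 at 3 months and 261, 42 and 117 at 22 months. Its mean share of listed tags was 0.021% ± 0.0204 (SD) over the 3 libraries at 3 months and 0.183% ± 0.166 over those at 22 months. The ages did not overlap, but 22 month replicate 2, at 0.0437%, lay close to the 0.0408% of 3 month replicate 3. The sum had a log2 difference of 3.20 (SE 1.22) and did not pass (edgeR over 39 anticodon sums, adjusted p = 0.144, between 0.0354 and 0.684 over the alternatives), where 5.13% of the sums passed in either direction. Without 22 month replicate 1 the mean share at 22 months was 0.0908%, still above the 3 month mean. With the 6 IDs listed only under the Ser-GCT-4-3 precursor added, the log2 difference of the sum was 0.18 (edgeR, adjusted p = 0.684).

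The serine TCN group went no clear way. AS-tDR-000088, of 9 Ser-AGA and Ser-TGA parents and reaching the CCA end, was the 1 serine member in all 6 libraries, with 36, 14 and 21 tags at 3 months and 32, 24 and 20 at 22 months. Mean CPM values were 439 ± 135 and 334 ± 84.4 (SD of 3 libraries), and the log2 difference, -0.39 (SE 0.42), did not pass (edgeR, adjusted p = 0.621). AS-tDR-001051 and AS-tDR-001055, of the same anticodons but also listed under precursors, had 11 tags each in 3 month replicate 1 and 0 elsewhere. In Ser-CGA, AS-tDR-015096 had 18, 18 and 0 tags at 22 months and 0 at 3 months, and AS-tDR-006039 had 9 tags in 3 month replicate 2 alone. The Ser-CGA sum did not pass (log2 difference 1.29, SE 1.69; edgeR, adjusted p = 0.617). It lay between 0.61 and 1.88 with 1 library left out, apart from 3 month replicate 2, without which the sum was at 0 at 3 months and the fitted 6.45 is no bound.

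All serine members together took 0.101%, 0.0731% and 0.0883% of listed tags at 3 months and 0.437%, 0.0874% and 0.162% at 22 months, for replicates 1, 2 and 3. Replicate 2 at 22 months lay within the range at 3 months. The difference of means was 0.141 percentage points, and the ages overlapped (exact two-sided permutation test, p = 0.3, and 0.3 adjusted over serine and threonine). The smallest p that 3 against 3 allows is 0.1, so this test could not have passed 0.05. Without 22 month replicate 1 the difference was 0.037 percentage points. Ser-GCT made up 0%, 30.3% and 46.2% of serine tags in replicates 1, 2 and 3 at 3 months, and 83.9%, 50% and 85.4% at 22 months.

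**Figure D3:**
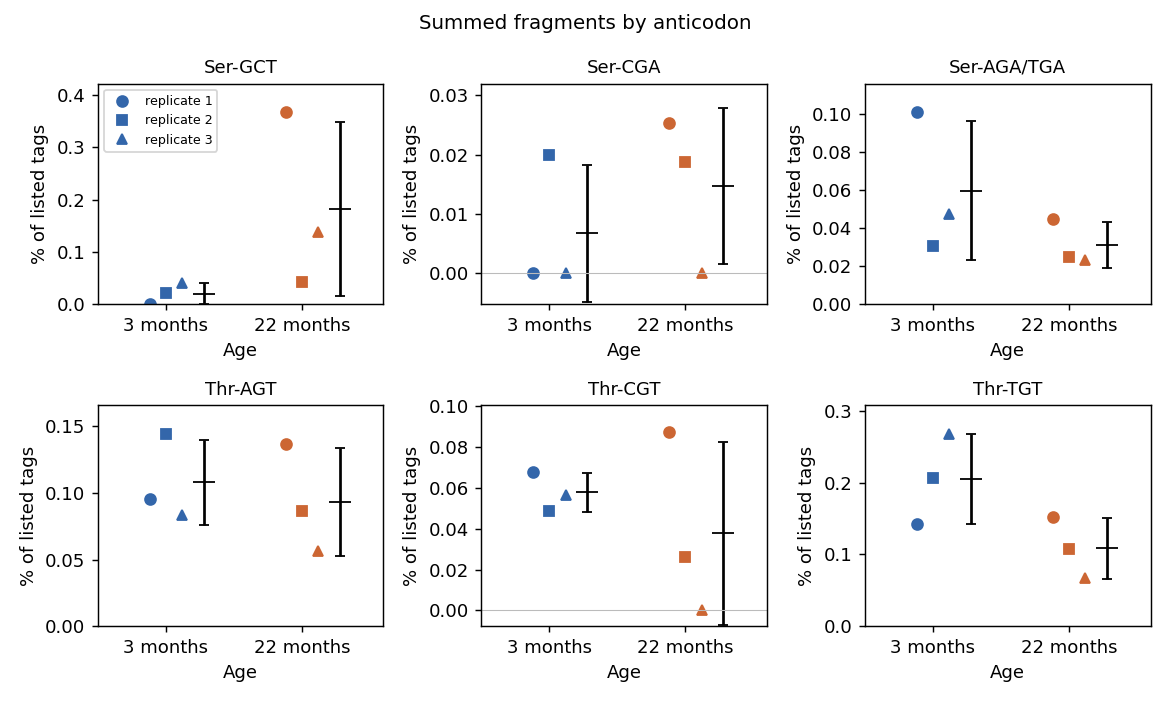
Summed tags per anticodon as a percentage of all listed tags, by age; symbols are replicates 1 to 3, the dash and bar beside them are the mean and SD of the 3 libraries. Ser-GCT lies between 0% and 0.0408% at 3 months and between 0.0437% and 0.367% at 22 months, and the ages overlap for each of the other 5.

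Of the 15 threonine members, 11 were listed at both ages, a share close to the 75.0% of all 591 IDs. The other 4 were listed at 1 age, 2 at 22 months only and 2 at 3 months only; without 22 month replicate 1, 9 were listed at both ages, 0 at 22 months only and 4 at 3 months only. Of the 9 tested, 2 had a positive and 7 a negative log2 difference, and 0 passed in either direction (edgeR; 0 also had an unadjusted p under 0.05, and 0 passed DESeq2). Their median log2 difference was -0.50, against -0.16 over all 439 IDs tested. The median was -1.24 over the same number of IDs with the replicate block. The number tested changed in the others. It was -1.08 over 10 IDs without 22 month replicate 1 and -0.24 over 12 without 22 month replicate 3. With each 0 set to 1 tag below the smallest listed count it was -0.014 over all 15, so the median is given as a description only. Between 4 and 12 threonine members were listed per library, and the lowest number was that of 22 month replicate 3.

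Thr-TGT gave the most abundant threonine member. AS-tDR-000074, whose possible sites must reach the CCA end, had 35, 34 and 38 tags at 3 months and 47, 43 and 36 at 22 months. Its mean TMM-scaled CPM was 697 ± 122 at 3 and 554 ± 70.6 at 22 months (SD of 3 libraries), with a log2 difference of -0.33 (edgeR, SE 0.25, adjusted p = 0.478). AS-tDR-006046, with the same parents, had 14, 17 and 25 tags at 3 months and 14, 25 and 21 at 22 months (log2 difference -0.50, SE 0.53; edgeR, adjusted p = 0.621). Both were thus listed in every library, and their ages overlapped. AS-tDR-013154, the other member with these parents, had 17 tags in 22 month replicate 1 alone.

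The Thr-TGT members that end before the CCA were listed at 0 in 22 month replicate 3. AS-tDR-005147 had 22, 10 and 22 tags at 3 months and 16, 17 and 0 at 22 months (log2 difference -1.26, SE 1.29; edgeR, adjusted p = 0.611; -0.62 without 22 month replicate 3). Its ages were parted by 216 against 218 TMM-scaled CPM and overlapped per listed total, 225 against 222 CPM. AS-tDR-005148 had 11, 12 and 17 against 14, 18 and 0 tags, and its ages overlapped (log2 difference -0.94, SE 1.34; -0.29 without 22 month replicate 3). AS-tDR-005153 had 0, 9 and 16 tags at 3 months, AS-tDR-005154 had 0, 11 and 0, and both were at 0 at 22 months. The Thr-TGT sum was 82, 93 and 118 tags at 3 months and 108, 103 and 57 at 22 months, a log2 difference of -0.81 (SE 0.41) that did not pass (edgeR, adjusted p = 0.239).

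Thr-AGT members went both ways. AS-tDR-010818 had 20, 16 and 14 tags at 3 months and 32, 21 and 28 at 22 months (log2 difference 0.17, SE 0.42; -0.02 when scaled by library size only). AS-tDR-005090, with the same 4 mature and 2 precursor parents, had 18, 16 and 14 against 33, 22 and 0 tags (log2 difference -0.37, SE 1.31; 0.26 without 22 month replicate 3). These 2 IDs thus differed mainly in 22 month replicate 3. AS-tDR-006004, which must reach the CCA end, was listed in 1 library at 3 months, with 11 tags, and in all 3 at 22 months, with 15, 23 and 20 (log2 difference 1.67, SE 1.73; 1.08 without 3 month replicate 1, 1.09 without 3 month replicate 3). Without 3 month replicate 2 it was at 0 at 3 months, and the fitted 7.14 is then no bound. AS-tDR-006879, also reaching the CCA, had 17, 12 and 9 against 0, 17 and 0 tags (log2 difference -1.75, SE 1.79; -1.08 without 22 month replicate 1, -1.09 without 22 month replicate 3). Without 22 month replicate 2 it was at 0 at 22 months, where the fitted -6.87 is no bound. The ages of AS-tDR-006879 overlapped in TMM-scaled CPM, where 22 month replicate 2 had 208 and 3 month replicate 3 had 187. Per listed total these were 177 and 204 CPM, so all 22 month libraries lay lower, as did those of 20.6% of all IDs. AS-tDR-006203 had 10 tags in 3 month replicate 2 and 17 in 22 month replicate 1. None of the 4 tested passed (edgeR, adjusted p between 0.611 and 0.878), and the sum differed by -0.12 on the log2 scale (edgeR, SE 0.44, adjusted p = 0.859), which turned to 0.14 without 3 month replicate 2 and 0.17 without 22 month replicate 3.

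Thr-CGT had 1 regularly listed member. AS-tDR-005104 had 27, 22 and 25 tags at 3 months and 28, 25 and 0 at 22 months. It was lower in all 3 libraries at 22 months, in TMM-scaled CPM and per listed total, with a log2 difference of -1.06 (SE 1.20) that did not pass (edgeR, adjusted p = 0.651). The difference was -0.41 without 22 month replicate 3, where the ID was listed at 0. Over all IDs, 14.9% lay lower in this way in TMM-scaled CPM and 20.6% per listed total. AS-tDR-015091 was listed in replicate 1 of each age, with 12 and 16 tags, and AS-tDR-015092 in 22 month replicate 1 alone, with 18. The Thr-CGT sum differed by -0.55 on the log2 scale (edgeR, SE 1.21, adjusted p = 0.812), and by 0.04 without 22 month replicate 3.

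By possible site, the threonine members fell into 6 that must reach the CCA end and 9 that end before it. The first class held a mean share of 0.155% ± 0.0363 at 3 months and 0.119% ± 0.0325 at 22 months (SD of 3 libraries), and 3 of its 6 IDs were listed in 22 month replicate 3. The second held 0.216% ± 0.0267 and 0.12% ± 0.0946. In that class 22 month replicate 3 listed 1 of 9 IDs and stood at 0.033%, against 0.107% in replicate 2 and 0.221% in replicate 1. Without 22 month replicate 3, the mean at 22 months was 0.164%. The ages overlapped in both classes (exact two-sided permutation test, p = 0.2 for the first and 0.3 for the second), and the difference between the classes was not tested.

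All threonine members together took 0.306%, 0.399% and 0.408% of listed tags at 3 months and 0.375%, 0.219% and 0.124% at 22 months, for replicates 1, 2 and 3. Replicate 1 at 22 months lay within the range at 3 months. The difference of means was -0.131 percentage points, and the ages overlapped (exact two-sided permutation test, p = 0.2, and 0.3 adjusted over serine and threonine). With a smallest possible p of 0.1, this test could not have passed 0.05. Without 22 month replicate 3 the difference was -0.0735.

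IDs of the same amino acids listed under precursors only, 9 for each, were set beside the members. The serine ones took 0.468%, 0.437% and 0.566% of listed tags at 3 months and 0.359%, 0.223% and 0.18% at 22 months. The threonine ones took 2.46%, 3.05% and 2.44% at 3 months and 1.64%, 1.34% and 0.947% at 22 months, nearly all from the precursor of Thr-CGT-1-1. Both were lower at 22 months in every library (exact two-sided permutation test, p = 0.1, the smallest possible). Of the 7 serine and 6 threonine IDs tested, 0 passed edgeR's test over all IDs, and 2 and 5 had an unadjusted p under 0.05, all lower. Over all IDs tested, 9.79% were lower and 15.7% higher at that threshold. Of the 427 IDs tested outside the members, 43 were lower and 67 higher, and of the 365 among them with a mature parent, 25 were lower and 62 higher. The counts differ by the precursor-only IDs of all amino acids, serine and threonine included, so being lower was not particular to these 2. The 2 serine IDs are both of the Ser-GCT-4-3 precursor and the 5 threonine IDs all of the Thr-CGT-1-1 precursor. They are thus fragments of 1 precursor each and not separate results. The summed share of the Ser-GCT members was higher at 22 months, where their sum did not pass, and that of the precursor-only serine IDs was lower. Single IDs did not all go these ways. Of the Ser-GCT members, 2 were listed at 3 months only, and 1 of the 7 precursor-only serine IDs tested had a positive log2 difference. The difference between the 2 classes was not tested.

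**Figure D4:**
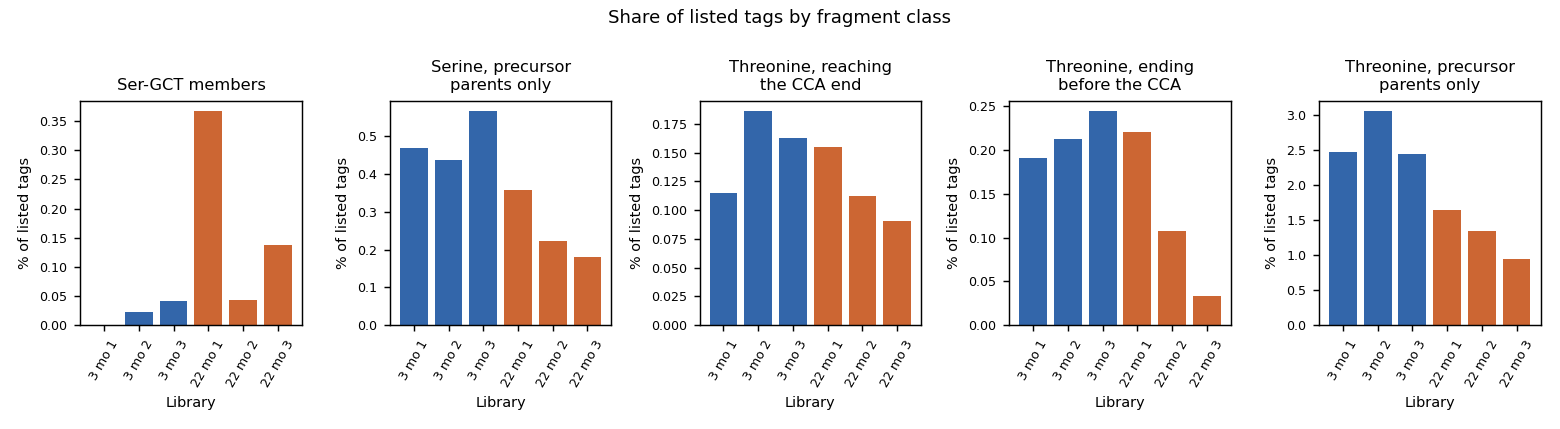
Share of listed tags, in percent, held by Ser-GCT members, by threonine members that reach the CCA end or end before it, and by serine and threonine IDs listed under precursors only; each bar is 1 library, blue at 3 months and orange at 22 months, and each panel has its own scale. Ser-GCT is highest in 22 month replicate 1 (0.367%), threonine ending before the CCA lowest in 22 month replicate 3 (0.033%), and both precursor classes are lower in each library at 22 months.

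Outside the members, the IDs whose log2 CPM over the 6 libraries was most like the serine sum, among 427 compared, were AS-tDR-000743 of His-GTG (Pearson's r = 0.953), AS-tDR-013477 of Leu-AAG (0.945) and AS-tDR-009338 of Leu-TAG (0.942). AS-tDR-013477 had 28, 20 and 25 tags at 3 months and 151, 68 and 106 at 22 months, so that it too was highest in 22 month replicate 1 and lowest of the 22 month libraries in replicate 2. Most like the threonine sum were AS-tDR-010789, shared by Gly-ACC and lysine tRNAs (0.988), AS-tDR-005835 of Gly-ACC (0.971) and AS-tDR-013645 of Glu-TTC (0.966). These are descriptions over 6 points that share library, depth and age.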

How the data were processed

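Per the file headers, the deposited table holds a tag count for each ID and library. The submitters' processing notes name FastQC, cutadapt, Novoalign and mm10; how tags were counted and from which level they were listed is not given in the sources used here. Columns named WT and Age were read as 3 and 22 months. Each ID was counted once. The 22 and 3 month libraries were compared with edgeR 4.0.16 under R 4.3.3 (TMM scaling, filterByExpr at 10 counts, the quasi-likelihood test and Benjamini-Hochberg adjustment over 439 IDs; 152 were not tested, 13 serine and 6 threonine members among them). A member at 0 at 3 months passes that filter only by being high at 22 months. Each SE is the difference over the root of its F statistic. CPM use the TMM-scaled totals of the tested IDs, shares the listed totals. Correlations used log2(CPM + 10). Sums per anticodon took IDs that have a mature parent and name 1 anticodon. Shares were compared by exact permutation with scipy 1.17.1. DESeq2 1.42.0, other scalings, no filter, a replicate block, left-out libraries and other treatments of zeros were alternatives. Named IDs were the 3 most abundant per anticodon, those past the threshold, the 2 largest differences each way and those listed at 1 age; the others are named because the members are few. Members and lists were chosen with earlier results of these data known, and the classes by possible site after the table was seen. Listed totals of 44156 to 96130 tags and member counts near the listing minimum limit the precision.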

Additional observations from a re-analysis of the deposited data

How the results depend on the processing

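The count of serine members that passed as higher, 1, became 0 without a filter on low counts, when scaled by library size only, with the replicate block and without each of the 6 libraries in turn (range 0 to 0). It was 0 by construction among IDs above 0 in all 6 libraries, since AS-tDR-015085 is at 0 at 3 months. It became 2, with AS-tDR-015075 added, with DESeq2 size factors and with the DESeq2 test. No serine member passed as lower and no threonine member passed in either direction under any of the 14 alternatives. The Ser-GCT sum passed with the DESeq2 test (log2 difference 3.22, adjusted p = 0.0354) and under no other alternative, and lay between 2.42 and 4.11 with 1 library left out. With 1 library left out, the Thr-AGT sum lay between -0.33 and 0.17, turning to 0.14 without 3 month replicate 2 and 0.17 without 22 month replicate 3. The Thr-CGT sum lay between -1.85 and 0.042, the latter without 22 month replicate 3. AS-tDR-005090 lay between -1.07 and 0.26, the latter again without that library, and AS-tDR-010818 turned to -0.019 with library size only, a scaling that moved the median log2 difference of all IDs from -0.16 to -0.34. With 1 library left out, AS-tDR-000088 lay between -0.53 and -0.14, AS-tDR-000074 between -0.46 and -0.19 and AS-tDR-006046 between -0.75 and -0.18. The serine share difference turned to -0.0169 percentage points among IDs above 0 in all 6 libraries, where AS-tDR-000088 is the 1 member left; with 1 library left out it lay between 0.037 and 0.212. The threonine share difference kept its sign under each alternative, between -0.199 and -0.0735 with 1 library left out. The cause of these changes was not tested, apart from the members left. Libraries of the same replicate number did not deviate together (correlations -0.42, 0.01 and -0.30 for numbers 1, 2 and 3 across the tested IDs, none the best match). With 3 libraries per age, this check cannot show whether they were prepared together. Treating them as a replicate block gave 0 calls among members, and an adjusted p of 0.153 for the Ser-GCT sum. The edgeR setting with legacy FALSE, zeros set to 1 tag below the smallest listed count, sums per set of anticodons, overlap of the ages per listed total and the left-out libraries for the share classes were added after seeing the data. Member counts of 9 to 70 tags, many of them near the listing minimum, limit the differences that could be detected.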
